A study of Homo sapiens with 4 samples.

Results

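The 53 genes described here are interferon-stimulated effector genes, chosen as a list of symbols and read from the probe sets that name 1 of them alone. Of the 53 symbols, 50 were tested among 17958 genes in all. DTX3L and GBP1 lie only on probe sets that name a further gene and were not measured separately, and STAT2 was not analysed here. Where a gene had more than 1 probe set, the brightest over all arrays stood for it, which concerned only TRIM22 among the 50.

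All samples came from HCT116, a cell line established from a human colorectal carcinoma, so a single line stands for the tumour type. Cells of the 5aza group (2 arrays) received 5-aza-2'-deoxycytidine, a cytosine analog that is incorporated into DNA and traps DNA methyltransferases, at 1 µM, first 24 hours after seeding and again 48 hours after that first dose. Cells of the vehicle group (2 arrays) received a vehicle that the labels do not name, and total RNA was taken from both groups 72 hours after the first dose. The replicates carry the numbers 1 and 2 in each group, and nothing says that they were separate cultures, so the p-values cover the spread between these arrays, which may be technical. Values are RMA levels on the log2 scale, and in general a probe set's level is not set against another's. The exceptions are the choice of a gene's brightest probe set, the call of a gene as dim, defined below, and the summed levels of cell type markers.

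Interferons are secreted proteins that bind cell surface receptors and activate the kinases JAK1 and TYK2. The signal reaches the nucleus, where a complex that contains IRF9 binds the interferon-stimulated response element in the promoters of effector genes. The effectors bind foreign RNA, block viral entry or assembly, conjugate the ubiquitin-like protein ISG15 to other proteins, or feed back on the pathway. In some carcinoma lines, inhibitors of DNA methylation have been described to raise genes of this kind, and several of the effector genes are also reported to be methylated in tumours.

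The response element is visible in the letters of the promoters, which are shown for a selection of members that rose, fell or did not pass, several of them neighbours, chosen with their values known. Promoter windows of RefSeq (build GRCh38.p14), from 250 bases before to 50 bases after an annotated start, were found for 39 of the 50 tested members. They were searched on both strands for the core GAAANNGAAA (on the other strand TTTCNNTTTC), where N is any base and overlapping matches count separately. The stretches below run 5′ to 3′ on the gene's strand, lie before the start and carry each match in capitals. IFI27 and HERC6 are shown over the whole 250 bases, as the strongest of the rises with a window and as a fall without a match, and the others over their matches with 30 bases on either side.
IFI27, which rose, chr14:94110486-94110735, plus strand: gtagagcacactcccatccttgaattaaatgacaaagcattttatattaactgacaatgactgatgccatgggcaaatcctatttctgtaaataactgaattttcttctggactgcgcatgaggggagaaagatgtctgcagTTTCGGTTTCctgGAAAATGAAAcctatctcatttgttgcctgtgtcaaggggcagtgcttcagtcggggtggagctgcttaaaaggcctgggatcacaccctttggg
IFIT1, which rose, chr10:89392477-89392559, plus strand: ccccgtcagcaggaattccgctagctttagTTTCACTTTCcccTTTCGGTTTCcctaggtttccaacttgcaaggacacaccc
ISG15, which rose, chr1:1013354-1013429, plus strand: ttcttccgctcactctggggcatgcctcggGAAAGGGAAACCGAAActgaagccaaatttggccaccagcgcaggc
BST2, which rose, chr19:17405715-17405790, minus strand: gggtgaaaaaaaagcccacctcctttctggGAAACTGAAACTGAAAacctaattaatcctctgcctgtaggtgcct
IFI6, which rose, chr1:27672246-27672378, minus strand: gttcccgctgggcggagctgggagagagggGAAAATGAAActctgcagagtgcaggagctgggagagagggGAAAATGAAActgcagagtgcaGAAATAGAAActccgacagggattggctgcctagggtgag
DDX60L, which fell, chr4:168480503-168480602, minus strand: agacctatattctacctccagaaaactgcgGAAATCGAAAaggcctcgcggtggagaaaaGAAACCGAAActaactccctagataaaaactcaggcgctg
PLSCR1, which fell, chr3:146544647-146544716, minus strand: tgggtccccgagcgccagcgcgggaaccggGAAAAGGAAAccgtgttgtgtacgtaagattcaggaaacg
PARP9, which fell, chr3:122564302-122564371, minus strand: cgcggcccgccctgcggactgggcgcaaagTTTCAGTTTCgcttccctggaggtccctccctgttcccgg
HERC6, which fell, chr4:88378602-88378851, plus strand: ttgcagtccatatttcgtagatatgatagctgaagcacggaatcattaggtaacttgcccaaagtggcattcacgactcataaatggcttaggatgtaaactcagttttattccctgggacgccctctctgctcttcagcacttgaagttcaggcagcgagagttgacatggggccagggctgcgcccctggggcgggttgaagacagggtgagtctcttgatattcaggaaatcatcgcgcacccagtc
IFIT3, which did not pass the test, chr10:89327811-89327914, plus strand: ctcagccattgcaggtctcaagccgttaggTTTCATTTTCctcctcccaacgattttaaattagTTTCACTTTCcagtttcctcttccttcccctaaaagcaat
HERC5, which did not pass, chr4:88456964-88457084, plus strand: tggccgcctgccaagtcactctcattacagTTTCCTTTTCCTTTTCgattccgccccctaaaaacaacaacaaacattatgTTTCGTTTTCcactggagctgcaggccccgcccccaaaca
DDX60, which did not pass, chr4:168318766-168318870, minus strand: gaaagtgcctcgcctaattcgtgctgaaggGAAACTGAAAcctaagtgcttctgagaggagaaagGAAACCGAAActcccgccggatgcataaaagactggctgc

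The core was held by 29 of the 39 members (74.4%), against 4.38% of the 27305 genes that have a promoter window. By outcome it was held by 9 of 11 members that rose, 3 of 5 that fell and 17 of 23 that did not pass. Members of all 3 outcomes thus carried the same letters, as the IFIT1 and IFIT3 stretches show side by side. A match describes these letters and does not show that a factor binds there.

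Interferon-stimulated effectors went in both directions after 5-aza-2'-deoxycytidine. In the limma fit over all genes, with Benjamini-Hochberg adjusted p under 0.05 as the call, 15 of the 50 tested members rose (30.0%, against 12.4% of all genes) and 6 fell (12.0%, against 15.6% of all genes). The remaining 29 did not pass. At an unadjusted p under 0.05 the counts were 18 higher and 10 lower, beside 2984 higher and 4130 lower among all 17958 genes. Rises of at least 2-fold numbered 6, and 1 fall reached that size, while among all genes such rises made up 5.05% and such falls 2.62%. The median member changed by -0.01 on the log2 scale and the median of all genes by -0.07. Since the members were picked with earlier results of these arrays known, the shares are a description and carry no test of the list. Centring the arrays on housekeeping genes moved the median of all genes by 0.11 and gave 2737 rises and 1919 falls among all genes, so that rises made up 58.8% of all calls, against 44.4% as deposited. With it 17 members rose and 5 fell. Without vehicle replicate 1, 8 members rose and 3 fell, beside 1267 rises and 1196 falls among all genes, and without vehicle replicate 2 the counts were 12 and 4 members, beside 1335 and 1237 of all genes.

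**Figure D1:**
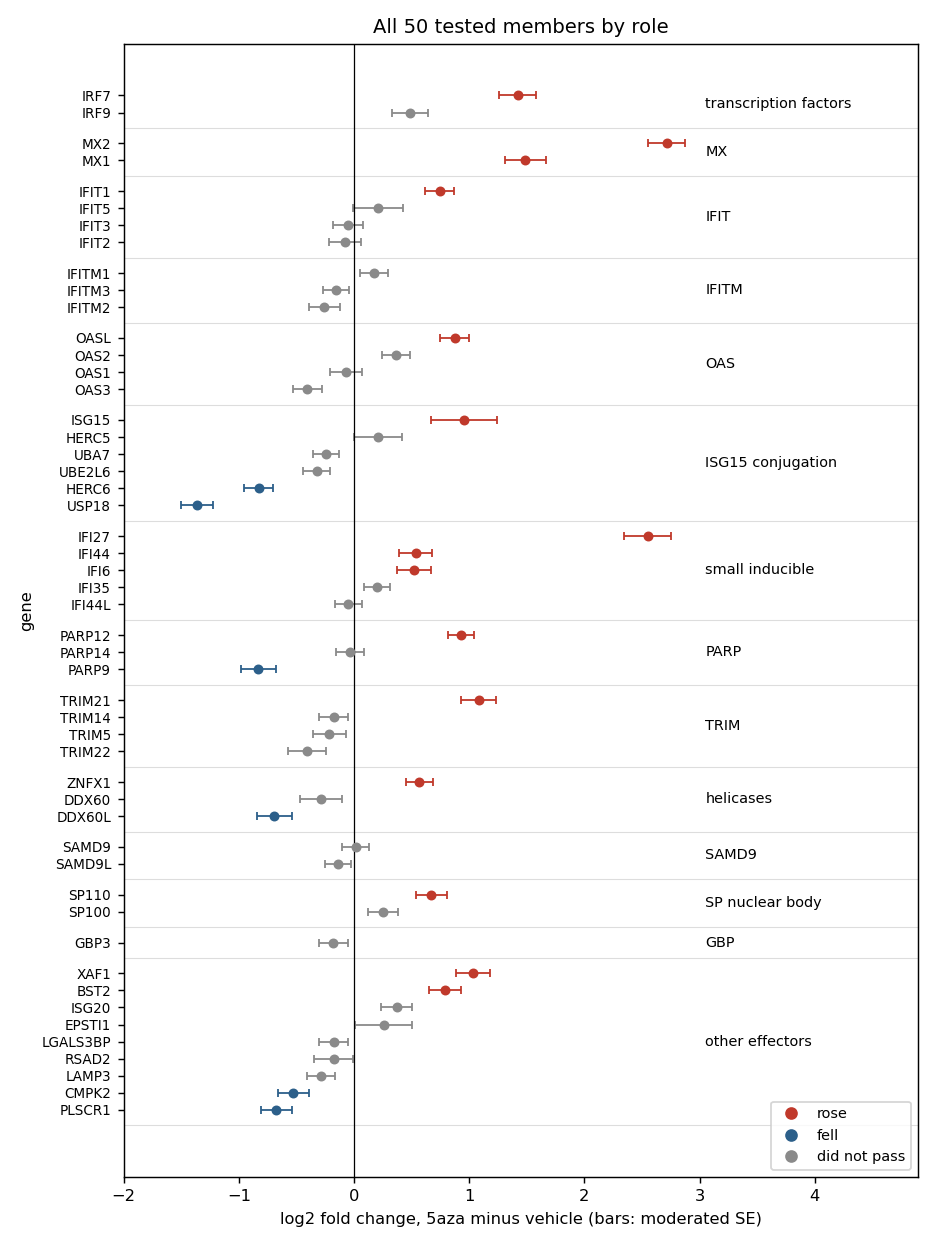
Log2 fold change (5aza minus vehicle, horizontal axis) of each of the 50 tested members, grouped by role, with bars of 1 moderated SE from limma fitted to 2 arrays per group. The 15 red points rose and the 6 blue points fell, and most roles hold members of more than 1 outcome.

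Arrays of the 2 groups did not overlap for most members. Both 5aza arrays were above both vehicle arrays for 21 members (42.0%, against 26.3% of all genes), and both were below for 18 (36%, against 39.5%). All 21 members that passed were without overlap, which a call with 2 arrays per group nearly requires. The smallest p that exact permutation of 4 arrays allows for 1 gene is 0.333, and the calls therefore depend on the spread that limma shares across genes. In a simulation over 17958 genes with 200 changed genes per run, 71.3% of changes of 1 on the log2 scale were recovered. Of changes of 0.5, 1.79% were. Far more genes were called in the data (2229 rises and 2794 falls), which loosens the adjustment, so these shares do not carry over to it. Some members with differences near 0.5 were called, such as IFI6 (0.52). The 29 members that did not pass had differences between -0.41 and 0.49, and not passing does not show them to be unaltered. In RNA from whole cultures, a change in the share of cells that express a gene and a change of level per cell cannot be told apart.

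**Figure D2:**
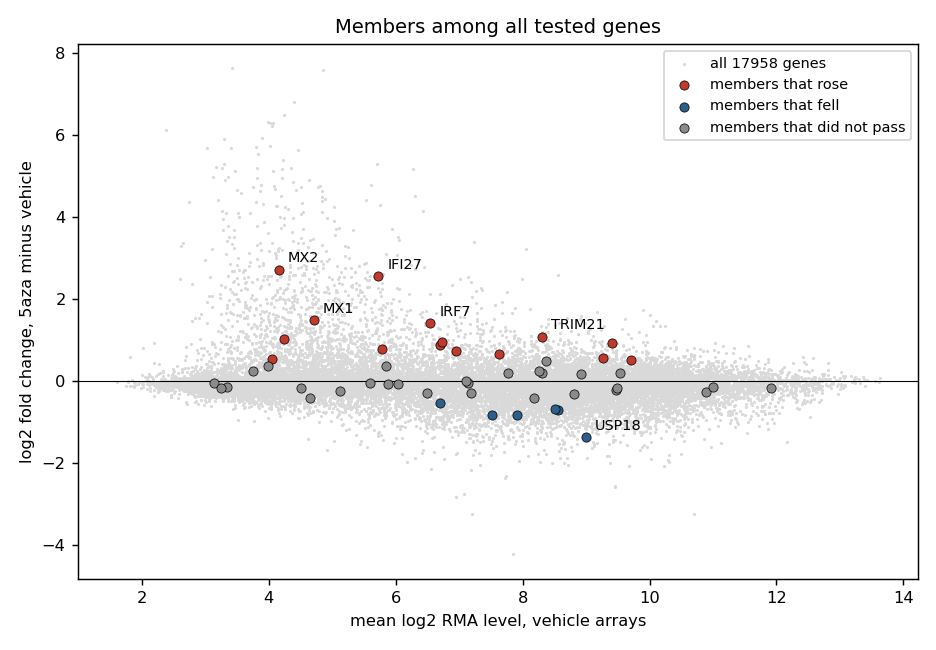
Log2 fold change (5aza minus vehicle, vertical axis) against the mean log2 RMA level in vehicle arrays (horizontal axis) for all 17958 genes (light grey) and the 50 members, coloured by outcome. MX2 and IFI27 lie highest among the members, at 2.71 and 2.55, and USP18 lowest, at -1.37.

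Transcription factors of the pathway came first. IRF7, the factor that drives transcription of type I interferon genes, had levels of 7.80 and 8.13 on the 5aza arrays, against 6.67 and 6.42 on the vehicle arrays. It rose 2.68-fold (log2 fold change 1.42, SE 0.16, limma adjusted p = 0.00107). IRF9, the DNA-binding part of the complex at the response element, had 9.05 and 8.66 on the 5aza arrays and 8.41 and 8.33 on the vehicle arrays. Its groups did not overlap, but the difference of 0.49 (SE 0.16, limma adjusted p = 0.0579) did not pass as deposited. It passed with housekeeping centring (0.60, limma adjusted p = 0.0233), after repeated quantile normalization, with the filter on dim genes, with an intensity trend in the variance and without 5aza replicate 2.

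Both MX genes, dynamin-like GTPases that trap viral nucleocapsids, rose. MX2 had 6.97 and 6.77 on the 5aza arrays, against 4.34 and 3.98 on the vehicle arrays. Its rise of 6.56-fold (2.71 on the log2 scale, SE 0.16, limma adjusted p = 6.23e-05) stood at rank 179 of the 17958 genes by fold change. MX1 had 6.25 and 6.15 on the 5aza arrays and 4.47 and 4.95 on the vehicle arrays, a rise of 2.81-fold (1.49, SE 0.18, limma adjusted p = 0.00136). Vehicle means of both lay under 5.52, the level below which 33.3% of all genes lie, and 5aza means lay above it. Such genes are called dim here, since the table has no detection calls, and RMA folds from dim levels are usually compressed.

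IFI27, an interferon-inducible protein of mitochondria and the nuclear envelope, was the other large rise. Its levels were 7.99 and 8.57 on the 5aza arrays, against 5.61 and 5.85 on the vehicle arrays, 5.86-fold higher (2.55, SE 0.20, limma adjusted p = 0.000254). Among the other small inducible genes, IFI6, an endoplasmic reticulum protein that blocks flavivirus replication, had 10.08 and 10.35 on the 5aza arrays and 9.59 and 9.82 on the vehicle arrays (rise of 0.52, SE 0.15, limma adjusted p = 0.0406). IFI44 had 4.73 and 4.43 on the 5aza arrays, against 3.98 and 4.12 on the vehicle arrays (rise of 0.53, SE 0.14, limma adjusted p = 0.0323), and was dim in both groups. Its neighbour IFI44L stayed at 3.03 and 3.14 on the 5aza arrays and 3.13 and 3.14 on the vehicle arrays, dim in both groups. IFI35, a partner of the protein NMI, differed by 0.20 and did not pass. The calls of IFI6 and IFI44 did not hold without vehicle replicate 1 (0.40 and 0.46, limma adjusted p = 0.275 and 0.208), and IFI6 also lost its call without vehicle replicate 2 and without 5aza replicate 2, IFI44 without vehicle replicate 2 and without 5aza replicate 1.

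**Figure D3:**
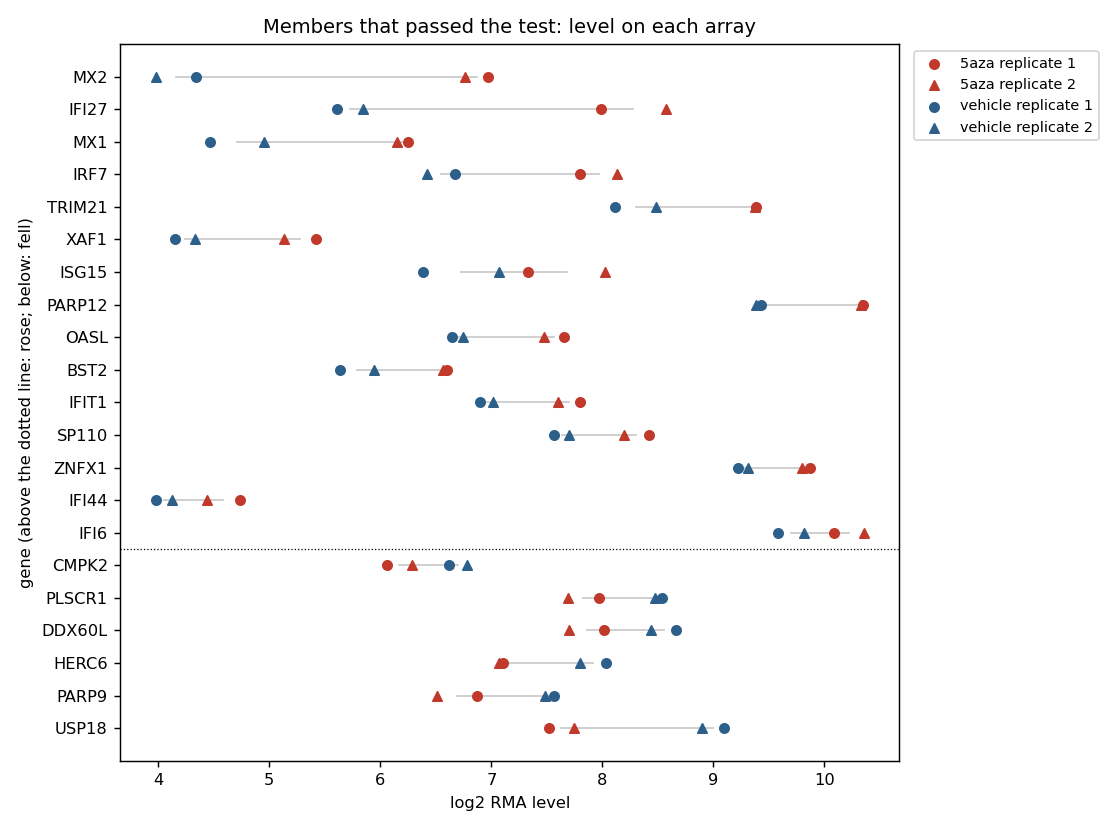
Log2 RMA level (horizontal axis) of the 21 members that passed the test on each of the 4 arrays, sorted by fold change; red marks are 5aza arrays, blue marks vehicle arrays, and the grey line joins the group means. In each of the 21 genes the 2 red marks lie on 1 side of the 2 blue marks, which a call with 2 arrays per group nearly requires.

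Of the 4 genes for IFIT proteins, which include binders of viral RNA that lacks the host's cap methylation, 1 rose and 0 fell. The shares of all genes were 12.4% and 15.6%. IFIT1 had 7.80 and 7.60 on the 5aza arrays, against 6.89 and 7.02 on the vehicle arrays, and rose 1.67-fold (0.74, SE 0.13, limma adjusted p = 0.00635). IFIT2, IFIT3 and IFIT5 overlapped between the groups, with differences of -0.08, -0.05 and 0.20, and those of IFIT2 and IFIT3 turned positive with housekeeping centring, which adds 0.11 to each difference. Without vehicle replicate 1 IFIT1 lost its call (0.68, limma adjusted p = 0.0580). None of the 3 IFITM genes, whose membrane proteins hinder viral entry, passed limma's test, and 0 were under an unadjusted p of 0.05. They were not dim in either group, with means of 9.09, 10.63 and 10.85 on the 5aza arrays and 8.92, 10.89 and 11.01 on the vehicle arrays for IFITM1, IFITM2 and IFITM3. IFITM genes resemble one another closely and probe sequences were not used, so signal shared between them was not assessed, nor was it for the IFIT and OAS families or for USP18, which has near-identical copies.

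Of the OAS family, whose enzymes make the oligoadenylates that activate RNase L, only OASL was called (all genes: 12.4% rose, 15.6% fell). It encodes the member without that enzymatic activity, which enhances signalling by the RNA sensor RIG-I. OASL had 7.65 and 7.48 on the 5aza arrays, against 6.64 and 6.74 on the vehicle arrays (1.83-fold higher, 0.87 on the log2 scale, SE 0.12, limma adjusted p = 0.00303). OAS1 overlapped between the groups (difference -0.07, positive with housekeeping centring). OAS2 had 4.28 and 4.43 on the 5aza arrays and 4.01 and 3.98 on the vehicle arrays, dim in both, with a difference of 0.36 (limma adjusted p = 0.0627). OAS3 lay the other way, at 7.67 and 7.88 on the 5aza arrays and 8.19 and 8.18 on the vehicle arrays (-0.41, limma adjusted p = 0.0523). Neither passed as deposited; OAS2 passed with housekeeping centring (0.47, limma adjusted p = 0.0366), after repeated quantile normalization and without 5aza replicate 1, and OAS3 without the dimmest 33.3% of genes (limma adjusted p = 0.0369) and without 5aza replicate 2.

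Of ISG15 and the enzymes that attach or remove it, 1 gene rose, 2 fell and 3 did not pass. Of all genes, 12.4% rose and 15.6% fell. ISG15 itself had 7.33 and 8.02 on the 5aza arrays, against 6.38 and 7.07 on the vehicle arrays. Its rise of 1.94-fold (0.95, SE 0.29, limma adjusted p = 0.0470) was the least certain of the 15 by SE, and its call was lost without vehicle replicate 1 (0.61, limma adjusted p = 0.194), without 5aza replicate 2 (0.61, limma adjusted p = 0.150) or after repeated quantile normalization (limma adjusted p = 0.0524). USP18, the protease that removes ISG15 and also holds back signalling at the receptor subunit IFNAR2, had 7.52 and 7.74 on the 5aza arrays, against 9.09 and 8.90 on the vehicle arrays. It was 2.58-fold lower (-1.37, SE 0.14, limma adjusted p = 0.000672), and its place by fold change was 17825 of 17958 from the top. HERC6, a HECT ligase that is the main ISG15 ligase in mouse, fell to 7.10 and 7.07 on the 5aza arrays, against 8.04 and 7.80 on the vehicle arrays (-0.83, SE 0.13, limma adjusted p = 0.00434). HERC5, the main human ISG15 ligase, overlapped between the groups (8.28 and 7.67 on the 5aza arrays, 7.90 and 7.64 on the vehicle arrays). The activating enzyme UBA7 and the conjugating enzyme UBE2L6 had differences of -0.24 and -0.32 and did not pass.

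Of 3 members of the ADP-ribosyltransferase family, 1 rose, 1 fell and 1 did not pass, while 12.4% of all genes rose and 15.6% fell. PARP12, which modifies proteins with single ADP-ribose units, had 10.35 and 10.33 on the 5aza arrays and 9.43 and 9.39 on the vehicle arrays (1.91-fold higher, 0.93 on the log2 scale, SE 0.11, limma adjusted p = 0.00157). PARP9, which works together with the ubiquitin ligase DTX3L, fell to 6.87 and 6.51 on the 5aza arrays, against 7.56 and 7.48 on the vehicle arrays (-0.83, SE 0.15, limma adjusted p = 0.00748). PARP14, a further ADP-ribosyltransferase, overlapped between the groups (difference -0.03, positive with housekeeping centring).

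TRIM21, a cytosolic antibody receptor and ubiquitin ligase, was the 1 of 4 listed TRIM genes to pass (all genes: 12.4% rose, 15.6% fell). Its levels were 9.39 and 9.37 on the 5aza arrays, against 8.11 and 8.48 on the vehicle arrays, 2.12-fold higher (1.08, SE 0.15, limma adjusted p = 0.00274). The capsid restriction factor TRIM5, TRIM14, an adaptor of mitochondrial antiviral signalling, and TRIM22 had differences of -0.22, -0.18 and -0.41 and did not pass. TRIM22 was dim in both groups, and its other probe set differed by 0.16, the opposite sign, also without passing.

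Helicases and RNA sensors of the list gave 1 rise and 1 fall among 3 tested, against 12.4% and 15.6% of all genes. ZNFX1, a helicase that senses double-stranded RNA at mitochondria, had 9.87 and 9.80 on the 5aza arrays and 9.22 and 9.31 on the vehicle arrays (0.57, SE 0.12, limma adjusted p = 0.0124). DDX60L had 8.02 and 7.70 on the 5aza arrays, against 8.66 and 8.44 on the vehicle arrays (-0.69, SE 0.15, limma adjusted p = 0.0162). Its neighbour DDX60, a cofactor of RIG-I, overlapped between the groups (-0.29). Both calls were lost without vehicle replicate 1 (0.52 and -0.58, limma adjusted p = 0.126 and 0.117), and that of ZNFX1 also without vehicle replicate 2. SAMD9, an inhibitor of translation in infected cells, differed by 0.01, and its paralog SAMD9L, dim in both groups, by -0.14; both missed limma's threshold, with 0 of the 2 under an unadjusted p of 0.05.

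Among nuclear body proteins, SP110 had 8.42 and 8.19 on the 5aza arrays, against 7.57 and 7.70 on the vehicle arrays (0.67, SE 0.13, limma adjusted p = 0.0106). SP100, also a protein of nuclear bodies, differed by 0.25 and did not pass. BST2, the tetherin that holds budding virions at the cell surface, had 6.60 and 6.56 on the 5aza arrays and 5.64 and 5.95 on the vehicle arrays (0.79, SE 0.14, limma adjusted p = 0.00708). XAF1, an antagonist of the apoptosis inhibitor XIAP, had 5.42 and 5.13 on the 5aza arrays, against 4.15 and 4.33 on the vehicle arrays (2.05-fold higher, 1.03 on the log2 scale, SE 0.14, limma adjusted p = 0.00280), dim by its group means in both. SP110 and BST2 lost their calls without vehicle replicate 1 (0.61 and 0.63, limma adjusted p = 0.0904 and 0.0667).

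Falls were seen for CMPK2 and PLSCR1. CMPK2, a mitochondrial nucleotide kinase, had 6.06 and 6.29 on the 5aza arrays, against 6.62 and 6.78 on the vehicle arrays (-0.53, SE 0.14, limma adjusted p = 0.0282). Its neighbour RSAD2, which encodes the antiviral enzyme viperin, lay at 3.29 and 2.83 on the 5aza arrays and 3.25 and 3.23 on the vehicle arrays, dim in both groups. PLSCR1, a phospholipid scramblase, had 7.97 and 7.69 on the 5aza arrays and 8.53 and 8.47 on the vehicle arrays (-0.67, SE 0.14, limma adjusted p = 0.0115). The fall of CMPK2 was lost with housekeeping centring (-0.42) and without vehicle replicate 1, vehicle replicate 2 or 5aza replicate 1, and that of PLSCR1 without either vehicle replicate. The exonuclease ISG20 (0.37), EPSTI1 (0.26), the secreted glycoprotein LGALS3BP (-0.17), the lysosomal protein LAMP3 (-0.29) and the guanylate-binding protein GBP3 (-0.18) did not pass. LGALS3BP had means of 11.74 on the 5aza arrays and 11.92 on the vehicle arrays.

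In all, 10 of the 50 members were dim in both groups (20%, against 30.5% of all genes), namely OAS2, UBA7, IFI44, IFI44L, TRIM22, SAMD9L, GBP3, RSAD2, EPSTI1 and XAF1. Of these, IFI44 and XAF1 rose. Across the alternatives, 8 of the rises (IRF7, MX1, MX2, OASL, IFI27, PARP12, TRIM21 and XAF1) and 3 of the falls (USP18, HERC6 and PARP9) were called in every setting that tested them. Without vehicle replicate 1, 10 of the 21 calls were lost, which left 8 rises and 3 falls. Without 5aza replicate 1, EPSTI1 (0.66), ISG20 (0.49) and OAS2 (0.44) were called higher and RSAD2 (-0.41) and TRIM22 (-0.62) lower, each of them not called as deposited.

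Several members lie side by side, many of them in clusters of paralogs. Of 13 pairs of tested members with at most 1 other protein-coding gene between them, both passed in 1 pair, 1 passed in 6 pairs and neither in 6, while 12.4% of all genes rose and 15.6% fell. The pair in which both passed was MX2 and MX1 on chromosome 21. In the IFIT cluster on chromosome 10, IFIT1 rose by 0.74 on the log2 scale, between IFIT3 and IFIT5 with differences of -0.05 and 0.20. HERC6 and HERC5, adjacent on chromosome 4, differed by -0.83 and 0.21. Whether neighbours differ from each other was not tested.

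**Figure D4:**
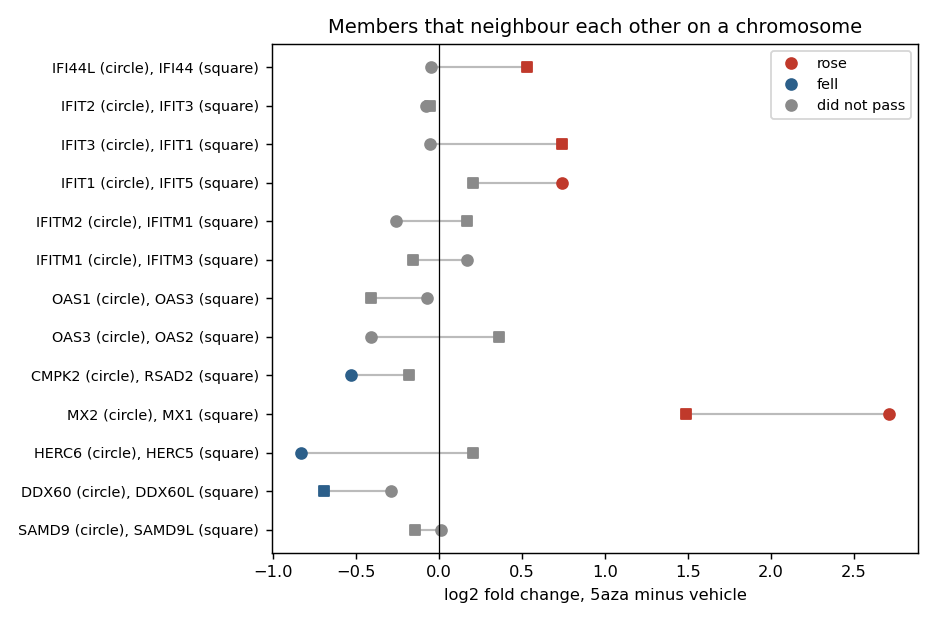
Log2 fold change (5aza minus vehicle, horizontal axis) of neighbouring members, 1 pair per row, the first gene as a circle and the second as a square, coloured by outcome. MX2 and MX1 are the only pair in which both passed, at 2.71 and 1.49.

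Promoter CpG content was set beside the outcome of each member. The CpG observed over expected ratio was taken from the highest window of each gene, and 0.6 is a usual bound for CpG-rich sequence. The ratio reached 0.6 for 3 of the 11 members that rose (MX1, ISG15 and PARP12), for all 5 that fell and have a window (CMPK2, DDX60L, HERC6, PARP9 and PLSCR1), and for 8 of the 23 that did not pass. The shares of the ratio at or above 0.6 were 72.0% of all tested genes that rose, 84.2% of those that fell and 69.9% of those that did not pass. The printed window of IFI27 belongs to 300 bases with 4 CpG sites (ratio 0.27), and that of HERC6 to 300 bases with 16 (ratio 0.75). These counts describe few genes and were not tested, and methylation was not measured in these samples.

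**Figure D5:**
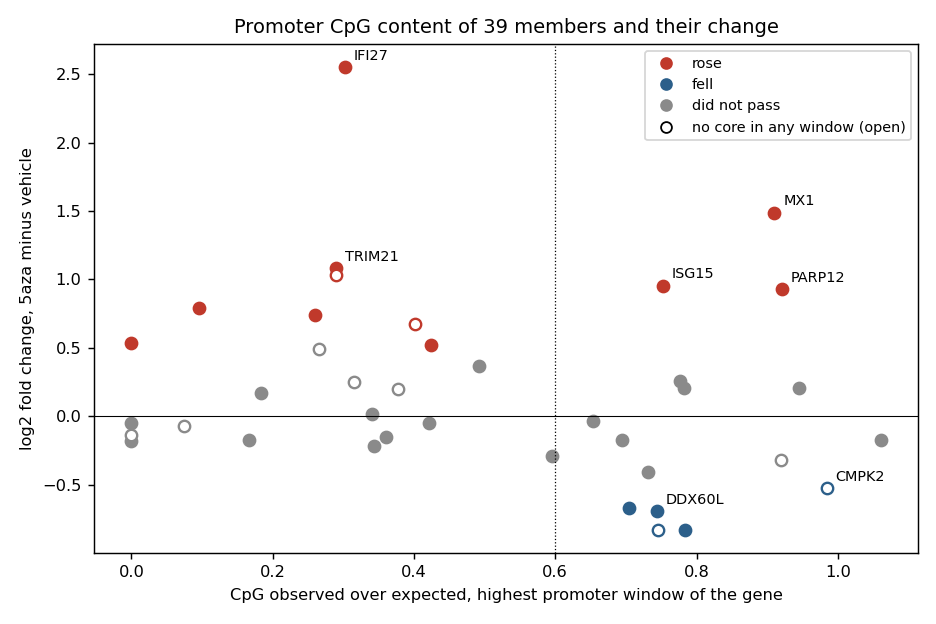
Log2 fold change (5aza minus vehicle, vertical axis) against the CpG observed over expected ratio of the highest promoter window (horizontal axis, dotted line at 0.6) for the 39 members with a window, coloured by outcome; open marks hold no core in any window. The 5 members that fell all lie right of the line, and 8 of the 11 that rose lie left of it.

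The rest of the interferon system was read from 6 lists of ligands, receptors, signalling proteins, regulatory factors, sensors and further induced genes. Of 85 genes tested, 10 rose and 9 fell (11.8% and 10.6%, against 12.4% and 15.6% of all genes), with a median of -0.03 on the log2 scale. Of 14 interferon genes 0 passed in limma after adjustment, and an unadjusted p under 0.05 was reached by 1 in each direction. Of the 14, 12 were dim in both groups, among them IFNB1, with 2.97 and 3.09 on the 5aza arrays and 3.07 and 3.63 on the vehicle arrays. IFNL3 was not dim in either group, with 7.08 and 7.82 on the 5aza arrays and 7.09 and 7.18 on the vehicle arrays. IFNL1 was dim only in vehicle cells, with 5.74 and 5.73 on the 5aza arrays and 5.40 and 5.49 on the vehicle arrays. The receptor subunit IFNAR2 fell by 0.54 (SE 0.12, limma adjusted p = 0.0151), while IFNAR1 (-0.39), the kinases JAK1 (-0.02) and TYK2 (0.24) and STAT3 (0.09) did not pass. SOCS1, an inhibitor of the kinases, rose by 0.67 (SE 0.12, limma adjusted p = 0.00724), and the phosphatase PTPN6 fell by 0.52 (SE 0.13, limma adjusted p = 0.0266). Of the other regulatory factors IRF4 rose (0.58) and IRF2 fell (-0.68), and IRF1 differed by -0.05. PTPN6 lost its call with housekeeping centring (-0.41, limma adjusted p = 0.0806), after repeated quantile normalization and without vehicle replicate 1, vehicle replicate 2 or 5aza replicate 1. IFNAR2 was not called without either vehicle replicate, SOCS1 without vehicle replicate 2 and IRF2 without vehicle replicate 1. IRF4, dim in both groups, lost its call after repeated quantile normalization and without vehicle replicate 1 or 5aza replicate 1.

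Among 19 sensors and adaptors, 2 rose and 2 fell (10.5% each, against 12.4% and 15.6% of all genes). CGAS, the cytosolic DNA sensor, had 8.40 and 7.90 on the 5aza arrays, against 3.76 and 3.22 on the vehicle arrays (25.2-fold higher, limma adjusted p = 2.92e-05). Since its vehicle level was dim and is not known to lie above background, this fold is that of the RMA values only. RIGI, the RNA sensor, had 8.93 and 8.98 on the 5aza arrays and 7.996 and 8.04 on the vehicle arrays (0.94, SE 0.11, limma adjusted p = 0.00159). STING1, the adaptor downstream of CGAS, fell by 0.75 (SE 0.12, limma adjusted p = 0.00415), and the endosomal receptor TLR3 fell by 1.08 (SE 0.13, limma adjusted p = 0.00162). Of 31 further induced genes, 6 rose and 4 fell (19.35% and 12.9%, against the same shares of all genes). The rises were of APOBEC3G, a cytidine deaminase that restricts retroviruses (1.73), GBP5 (1.49), GBP2 (1.39), the chemokine CXCL11 (0.89), the helicase HELZ2 (0.61) and the nuclear body protein PML (0.59). The falls were of the immunoproteasome subunit PSMB9 (-1.39), the death ligand TNFSF10 (-1.01), TRIM38 (-0.58) and the nucleotidase NT5C3A (-0.54). CXCL11, dim in both groups, was not called without vehicle replicate 1 (0.47, limma adjusted p = 0.167), without either 5aza replicate or after repeated quantile normalization. HELZ2, PML and NT5C3A lost their calls without either vehicle replicate, TRIM38 without vehicle replicate 2, and NT5C3A also with housekeeping centring and without 5aza replicate 2. TNFSF10 was dim in both groups, and APOBEC3G, GBP5 and GBP2 were dim in vehicle cells. Without vehicle replicate 1 the 85 genes gave 6 rises and 5 falls, and without vehicle replicate 2 they gave 8 and 5.

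Epithelial identity and other cell types were read from lists of markers, chosen like the members with earlier results of these data known. The keratins KRT8, KRT18 and KRT19 and the adhesion genes EPCAM and CDH1 had means between 10.17 and 13.26 on the 5aza arrays and between 10.23 and 13.01 on the vehicle arrays. Of 12 epithelial markers 2 rose and 5 fell, against 12.4% and 15.6% of all genes. KRT18 (0.44) and CDX2 (0.70) rose, and ESRP1 (-1.03), CLDN4 (-0.92), CLDN3 (-0.75), EPCAM (-0.72) and CLDN7 (-0.46) fell. The summed linear level of the 12 was 34300 to 35980 on the 5aza arrays and 34050 to 34390 on the vehicle arrays. Such a sum is weighted toward its brightest genes, here the keratins, and does not show the falls. The enterocyte gene VIL1 was dim in both groups (4.60 on the 5aza arrays and 4.31 on the vehicle arrays). Of 13 leukocyte markers 6 rose and 0 fell, against 12.4% and 15.6% of all genes, with 8 dim in both groups. Their summed linear level was 1458 to 1775 on the 5aza arrays and 621.1 to 733.4 on the vehicle arrays, weighted toward CD68, the brightest of them. The defining leukocyte gene PTPRC lay at 3.12 on the 5aza arrays and 3.02 on the vehicle arrays, and CD68 at 10.22 on the 5aza arrays and 8.69 on the vehicle arrays. Of 10 fibroblast markers 4 rose and 0 fell, against the same shares of all genes. Their sums were 1338 to 1368 on the 5aza arrays and 777.0 to 844.4 on the vehicle arrays, weighted toward ACTA2, the brightest of them. The fibroblast markers that rose were THY1 (3.15), ACTA2 (0.63), COL1A1 (0.63) and PDGFRA (0.53). Of 6 endothelial markers 1 rose (PECAM1, 1.79) and 1 fell (KDR, -0.55), against the same shares of all genes. The endothelial sums were 219.5 to 276.9 on the 5aza arrays and 153.2 to 166.9 on the vehicle arrays. The part of these markers in the members' changes was not tested. Pearson's correlation over 33297 probe sets was 0.992 between the 5aza arrays, 0.995 between the vehicle arrays and 0.966 to 0.971 across groups.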

How the data were processed

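Total RNA of 4 HCT116 samples was hybridized to Affymetrix arrays, 1 per sample. The deposited values are on the log2 scale; Affymetrix Expression Console and RMA are named per the submitters' processing notes. The sources used here do not give versions, probe set definitions or a genome build. Quantile normalization within RMA hides a change in total RNA. Probe sets were named through the platform annotation (19181 with 1 symbol, 2055 with several, 12061 not listed), in which 0 symbols differed from RefSeq. The members and gene lists were chosen with earlier results of these data known.

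Groups were compared in limma 3.58.1 (R 4.3.3; lmFit and eBayes, two-sided, no covariate) over 17958 genes with Benjamini-Hochberg adjustment and a threshold of 0.05, and tested on simulated data (10 runs, 200 changed genes each). Every member that passed is named with each array's value; the others are given by group. With 1 array left out, the lone array of its group is assumed to vary like the others. The 2 arrays per group limit the precision. Alternatives were housekeeping centring (18 genes), repeated quantile normalization, a filter on dim genes, the mean of a gene's probe sets, all probe sets together, an intensity trend in the variance, leaving out each array and a replicate block.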

Additional observations from a re-analysis of the deposited data

How the results depend on the processing

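Among the genes called as deposited, members and interferon system alike, 0 changed direction under the alternatives. Several alternatives could not have reversed them. Arrays of these genes did not overlap between groups, so leaving 1 array out keeps the sign. The replicate block leaves each difference as it is, and housekeeping centring adds only 0.11. Small negative differences that were not called (IFIT2, IFIT3, OAS1, PARP14, IFI44L, JAK1 and IRF1) turned positive with housekeeping centring. With 1 array left out, between 8 and 17 members rose and between 3 and 7 fell, between 1267 and 2530 of all genes rose and between 1196 and 3401 fell, and between 6 and 14 genes of the interferon system rose and between 5 and 12 fell. The lowest counts of members and of all genes came with vehicle replicate 1 left out. Testing all probe sets together gave 1433 rises and 1472 falls of all genes, with 12 and 4 among members and 7 and 6 in the interferon system. More features entered the adjustment there, and the members ISG15, IFI6, IFI44, DDX60L and CMPK2 lost their calls. So did IRF4, PTPN6, CXCL11, PML, TRIM38 and NT5C3A of the interferon system. The filter on dim genes left MX1, MX2, XAF1 and IFI44 untested. The labels do not say whether same-numbered arrays are paired. Deviations of same-numbered arrays correlated at 0.27 over genes, and with the replicate block 18 members rose and 7 fell, 2805 and 3834 of all genes, and 13 and 13 of the interferon system. IRF9, OAS2, OAS3 and ISG20 also passed with the block. Detection above background is not known for this table.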

Other observations

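A few members differed between replicates in the same way in both groups. ISG15 was higher in replicate 2 than in replicate 1 by 0.69 on the log2 scale in 5aza cells and by 0.69 in vehicle cells, gaps beyond the 90th percentile of all genes (0.44 in 5aza cells and 0.31 in vehicle cells). IFIT5 was lower in replicate 2 by 0.56 in 5aza cells and 0.39 in vehicle cells. With the replicate block, the rise of ISG15 kept its value of 0.95 and had a limma adjusted p of 0.000346, in a range of 0.000346 to 0.194 over its alternatives.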
